A study of Mus musculus with 22 samples.

Results

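The replication-dependent histone genes were followed in RNA from primary mouse embryonic fibroblasts (MEFs) with and without Lsh. Members were all genes whose symbol in the deposited expression files begins with Hist1h, Hist2h, Hist3h or Hist4h, which are the names of the histone gene clusters. This gave 68 members in 77 transcript rows, out of 21032 genes. By cluster, 54 lie in Hist1 (chromosome 13, 21807632 to 24026720 in the build mm9), 10 in Hist2 (chromosome 3, 96023839 to 96074115), 3 in Hist3 (chromosome 11, 58762413 to 58770176) and 1 in Hist4 (chromosome 6, 136752589 to 136752900). By histone type, 6 encode the linker histone H1, 18 encode H2A, 19 encode H2B, 12 encode H3 and 13 encode H4. Lsh, encoded by Hells, is a chromatin remodelling protein of the SNF2 family. The cells were taken from C57BL/6 embryos at stage E13.5 and used at passages 3 to 4, either wild type (WT, Lsh+/+) or knockout (KO, Lsh-/-), with no other allele or treatment named. Each genotype had 2 RNA libraries, called WT1, WT2, KO1 and KO2, and the other 18 samples of the study, which are chromatin samples and their inputs, were not used here. The labels speak of biological replicates without saying whether they came from separate embryos or litters, so p-values measure only the spread between these libraries. The embryos themselves were genotyped, so effects of the loss in the culture and effects carried over from the embryo cannot be told apart.

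Replication-dependent histone genes supply the histones that package new DNA and are transcribed mainly in S phase. The core histones H2A, H2B, H3 and H4 form the nucleosome, and H1 binds the DNA that enters and leaves it. Most of their mRNAs carry no poly-A tail and end in a short stem-loop, bound by the protein SLBP, although some of these genes can also give transcripts with a tail. Per the labels' protocols the RNA was treated with RiboMinus and then selected on poly-T beads. The values are therefore levels of the histone RNA that the beads kept, and the mRNA without a tail was not measured separately.

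Promoter sequences are shown for the member with the highest level (Hist1h1c), the H4 gene with the highest level (Hist1h4i) and a divergent H2A and H2B pair (Hist1h2ae and Hist1h2bg), to show the motifs compared between the histone types. The sequences are from RefSeq, build GRCm38.p6, in windows of 250 bases before the start, written 5′ to 3′ on the strand given, and capitals mark the motifs searched on both strands. The TATA box was searched as TATAAA, the box bound by NF-Y as CCAAT, the octamer bound by Oct1 as ATTTGCAT and the H1 box as AAACACA. Hist1h1c is at chr13:23738557-23738806 on the plus strand, and Hist1h4i at chr13:22041363-22041612 on the minus strand. The stretch between the starts of Hist1h2ae, read leftwards, and Hist1h2bg, read rightwards, is at chr13:23571221-23571399 and holds 179 bases, given on the plus strand.
Hist1h1c: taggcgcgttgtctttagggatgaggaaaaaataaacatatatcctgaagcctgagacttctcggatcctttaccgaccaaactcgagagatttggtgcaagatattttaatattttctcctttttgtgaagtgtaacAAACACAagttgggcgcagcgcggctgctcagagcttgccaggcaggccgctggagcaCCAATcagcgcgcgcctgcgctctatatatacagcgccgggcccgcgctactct
Hist1h4i: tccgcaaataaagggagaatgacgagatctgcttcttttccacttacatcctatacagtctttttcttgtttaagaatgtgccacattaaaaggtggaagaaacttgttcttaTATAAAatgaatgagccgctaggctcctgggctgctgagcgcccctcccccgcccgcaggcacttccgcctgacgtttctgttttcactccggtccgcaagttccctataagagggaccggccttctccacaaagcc
Hist1h2ae and Hist1h2bg: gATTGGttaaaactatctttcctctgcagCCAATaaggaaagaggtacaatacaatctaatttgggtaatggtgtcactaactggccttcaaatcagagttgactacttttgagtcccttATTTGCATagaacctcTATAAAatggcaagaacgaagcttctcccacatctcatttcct
In Hist1h1c the H1 box lies 112 and the CCAAT box 54 bases before the start, and in Hist1h4i the only match is a TATAAA at 137 bases.

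Of the 68 members, 67 matched RefSeq by accession and 62 had a window, giving 63 windows. CCAAT was found in 6 of 6 windows of H1, 18 of 18 of H2A, 17 of 17 of H2B, 8 of 10 of H3 and 3 of 12 of H4 genes, against 33.8% of all 32817 windows of that length. The octamer was found in 7 of 18 windows of H2A and 7 of 17 of H2B genes, in 0 of the other types and in 1.6% of all windows. The H1 box was found in 5 of 6 windows of H1 genes, in 2 of 18 of H2A and 2 of 17 of H2B genes, and in 6.25% of all windows. TATAAA was found in 46% of the members' windows and in 12.4% of all windows. The 10 divergent pairs of H2A and H2B genes share part of their windows, so these counts are not independent. A match describes the letters only.

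In depth the libraries ran from 122 to 177 M mapped reads, as recovered from single-exon olfactory receptor rows. The files of replicate 1 list 26886 transcript rows and those of replicate 2 list 21136, so the libraries were processed differently by number, and each difference between KO and WT is given for either number separately beside the pooled one. Levels are in RPKM, the reads of a transcript divided by its length in kilobases and by the mapped reads in M. Hells was at 0.865 RPKM in WT1 against 0.43 in KO1, and at 1.06 in WT2 against 0.55 in KO2, a log2 change of -0.56 (SE 0.34, limma adjusted p 1.00), lower in KO within both numbers. The labels do not say which part of the gene was deleted. All 12 fibroblast markers passed the filter, but their levels ranged widely. Col1a1 was between 291 and 517 RPKM and Fap between 0.379 and 2.52, and Lum was at 0.718 RPKM in WT1 and 1.27 in KO1 against 108 in WT2 and 105 in KO2. Markers of macrophages and blood summed to 62.1 RPKM in WT1 and 8.48 in KO1, and to 180 in WT2 and 86.6 in KO2. All 11 tested markers of that list were lower in KO within both numbers (31.4% of all genes). The globin genes Hba-a1 and Hbb-b1 were at 0 where listed, 2 of the 15 markers. In limma with terms for genotype and number, 5 of the 11 were called lower (0.296% of all genes): Cd14, Laptm5, Fcer1g, C1qc and Cd52. Of 3 tested epithelial markers 2, Krt19 and Krt7, were called lower. Tubb3 was called raised (0.377% of all genes), 1 of 3 tested neuronal and glial markers. With genotype as the only term 0 were called. The part of such cells in the histone values was not tested. Gapdh was at 0 to 0.298 RPKM against 1228 to 2306 for Actb. Gapdh and the histone genes have close copies, and whether these bear on the listed values was not tested.

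Most histone members were listed at low levels. The median of the listed members was 0.184 RPKM in WT1, 0.245 in KO1, 0.272 in WT2 and 0.255 in KO2, against 1.74, 1.68, 2.42 and 2.46 for all listed genes in the same order. Below 0.5 RPKM in every library were 42 of the 68 members, counting those not listed. At 1 RPKM or more in every library were 7 members (10.3%, against 41.3% of all genes): Hist1h1c, Hist1h2bc, Hist3h2a, Hist1h4i, Hist1h4h, Hist1h2ba and Hist2h3c2-ps. At 10 RPKM or more in every library were 3 members (4.41%, against 12.7%). In these bulk samples, fewer cells that make a transcript and less of it per cell cannot be told apart.

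**Figure D1:**
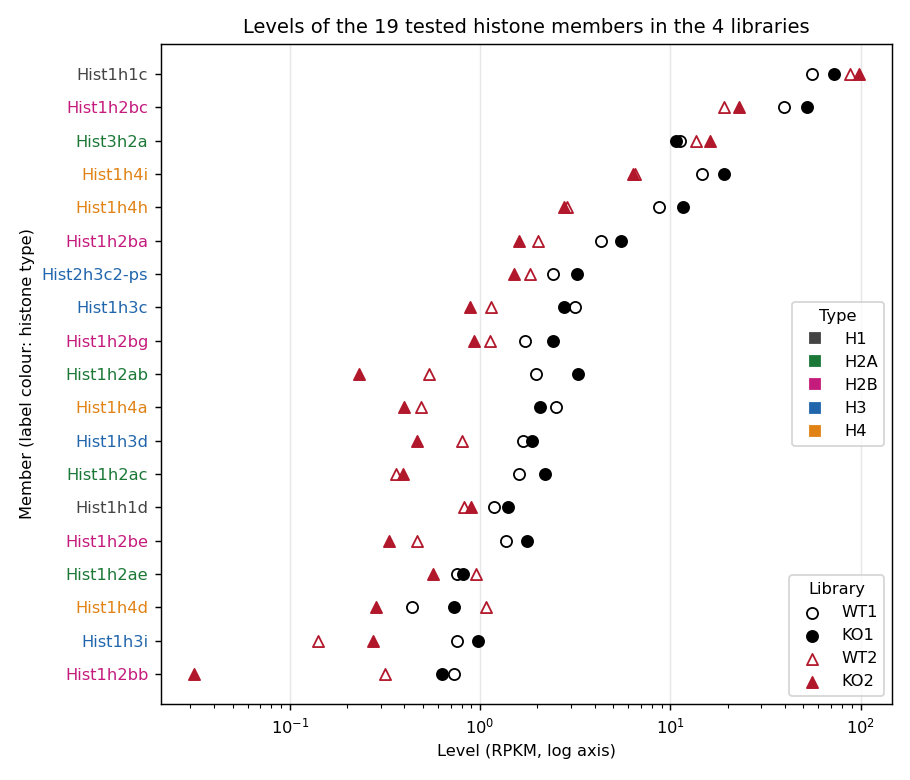
Level in RPKM (log axis) of the 19 members that passed the filter of 0.5 RPKM in 2 libraries, with 1 symbol per library (circles replicate 1, triangles replicate 2, open WT, filled KO) and label colours for the histone type. Hist1h1c lies highest, at 55.7 to 98.4 RPKM, and the triangles of most members lie to the left of the circles.

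The linker histone genes were carried by a single member. Hist1h1c (chromosome 13, 23830676 to 23832236), which encodes a main somatic H1, was at 55.7 RPKM in WT1, 72.6 in KO1, 88.5 in WT2 and 98.4 in KO2. Both libraries of replicate 2 lay above both of replicate 1, and KO lay above WT within each number. It gave 96.4% to 98.4% of the summed level of the 6 H1 genes. Hist1h1d, another somatic H1, was at 1.18 RPKM in WT1, 1.4 in KO1, 0.82 in WT2 and 0.901 in KO2, low in replicate 2 and higher in KO within each number. Hist1h1e was at 0.371, 0.895, 0.291 and 0.321 RPKM in the same order, in a row that overlaps Hist1h2be by 497 bases on the same strand. Hist1h1a, Hist1h1b and Hist1h1t, the last known as the testis form of H1, stayed below 0.5 RPKM in every library. Hist1h1t had 9 reads in WT1, 21 in KO1, 5 in WT2 and 7 in KO2.

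Among the H2A genes the Hist3 member was the highest. Hist3h2a (chromosome 11, 58768187 to 58770176) was at 11.2 RPKM in WT1, 10.7 in KO1, 13.6 in WT2 and 16.1 in KO2, with the highest value in KO2. It held between 61.1% and 85.6% of the summed H2A level. Hist1h2ab was at 1.97 RPKM in WT1, 3.28 in KO1, 0.537 in WT2 and 0.232 in KO2, so its KO library was the higher one in replicate 1 and the lower one in replicate 2. Hist1h2ac was at 1.6, 2.2, 0.361 and 0.392 RPKM in the same order. Replicate 2 lay below replicate 1 for both of these Hist1 genes, and the groups by genotype overlapped. Of the 18 H2A members, 11 were listed in all 4 libraries, and 6 of these were below 0.5 RPKM in each.

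Among the H2B genes Hist1h2bc (chromosome 13, 23776068 to 23784349) stood first. It was at 39.6 RPKM in WT1, 52.4 in KO1, 19.2 in WT2 and 22.9 in KO2, higher in KO within each number and lower in replicate 2. It made up 73.4% to 82.1% of the summed H2B level. Hist1h2ba, known as the testis form of H2B, was at 4.33 RPKM in WT1, 5.49 in KO1, 2.01 in WT2 and 1.61 in KO2. It rested on 220, 258, 136 and 84 reads, and it was higher in KO in replicate 1 alone. Hist1h2bg was at 1.72, 2.43, 1.13 and 0.932 RPKM in the same order, with the same change of side between the numbers. Hist1h2bb was at 0.728, 0.628, 0.315 and 0.0314 RPKM, from 45, 36, 26 and 2 reads. Its KO2 value was the lowest of the 19 tested members. Of the 19 H2B genes, 17 were listed in all 4 libraries and 10 of them were below 0.5 RPKM in each.

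The H3 genes had no member at 10 RPKM or more in any library. The highest by its mean over the libraries, Hist2h3c2-ps (chromosome 3, 96042039 to 96043050), is named as a pseudogene in its symbol here. In RefSeq its symbol is H3c15. It overlaps a row of Hist2h3c1 by 546 bases on the same strand. Hist2h3c1 was at 0 RPKM in WT1 and KO1 and was not listed in replicate 2. Where the reads of Hist2h3c2-ps lay cannot be read from a value per transcript. Hist2h3c2-ps was at 2.42 RPKM in WT1, 3.24 in KO1, 1.83 in WT2 and 1.5 in KO2. Hist1h3c was at 3.15, 2.77, 1.14 and 0.888 RPKM in the same order, higher than Hist2h3c2-ps in WT1 alone and lower in KO within each number. Hist1h3d was at 1.68, 1.87, 0.799 and 0.465 RPKM, and Hist1h3i at 0.752, 0.981, 0.141 and 0.274. All 4 of these H3 members were lower in both replicate 2 libraries than in both replicate 1 libraries. They are the tested H3 members, and Hist1h3i reached 0.5 RPKM in replicate 1 alone. Without the filter, 6 of the 11 listed H3 members lay lower in this way (17.8% of all genes) and 2 higher (50.6%). Hist1h3i was higher in KO within each number, on 48, 58, 12 and 18 reads.

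Of the H4 genes, 2 stood above the rest. Hist1h4i (chromosome 13, 22132685 to 22133221) was at 14.6 RPKM in WT1, 19.1 in KO1, 6.5 in WT2 and 6.35 in KO2, from 1038, 1256, 616 and 464 reads. It held 53.8% to 55.5% of the summed H4 level, a share that varied little between libraries while the level itself differed by number. Hist1h4h was at 8.69, 11.6, 2.88 and 2.77 RPKM in the same order. Both were higher in KO in replicate 1, and in replicate 2 their ratios of KO to WT differed from 1 by less than counting error. Hist1h4a was at 2.5 RPKM in WT1, 2.07 in KO1, 0.49 in WT2 and 0.4 in KO2, lower in KO within each number. Hist4h4, the only gene of the Hist4 cluster, had 4 reads in WT1, 4 in KO1, 0 in WT2 and 2 in KO2. That is 0.097, 0.105, 0 and 0.0471 RPKM.

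Summed over all members, the level was 160 RPKM in WT1, 202 in KO1, 150 in WT2 and 162 in KO2. KO was 1.26 times WT in replicate 1 and 1.08 times in replicate 2. The pooled log2 ratio was 0.23, and it was 0.07 without KO1 and 0.38 without KO2. Hist1h1c and Hist1h2bc together gave 59.7% of the sum in WT1, 61.9% in KO1, 71.6% in WT2 and 74.7% in KO2. Without Hist1h1c the sums were 104, 129, 61.8 and 64 RPKM, so both replicate 2 libraries then lay below both replicate 1 libraries. The sums of the histone types did not shift together between the numbers, which rested on the highest member of H1 and of H2A. The H1 sum was 57.8 RPKM in WT1 and 75.4 in KO1 against 89.9 in WT2 and 99.9 in KO2. The H2B sum was 49.5 and 64.2 against 26.1 and 27.8 RPKM, and the H4 sum 26.9 and 34.5 against 12.1 and 11.4. The H2A sum stayed between 16 and 18.8 RPKM. The H3 sum was 9.63 in WT1, 10.5 in KO1, 5.77 in WT2 and 4.35 in KO2. Without Hist1h1c the H1 sum was 2.03 RPKM in WT1 and 2.75 in KO1 against 1.43 in WT2 and 1.59 in KO2. Without Hist3h2a the H2A sum was 4.77 and 6.81 against 2.87 and 2.71. Both remainders were thus lower in replicate 2, as were the sums of H2B, H3 and H4. Single members were more mixed. Both replicate 2 libraries lay below both replicate 1 libraries for 3 of 6 listed H1 and 2 of 11 H2A members. For H2B it was 8 of 17, for H3 6 of 11 and for H4 4 of 11 (17.8% of all genes). They lay above for 1 H1, 4 H2A, 4 H2B, 2 H3 and 4 H4 members (50.6% of all genes). No test was made on a sum, since 2 libraries against 2 could not reach 0.05 in an exact test and the members were chosen.

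**Figure D2:**
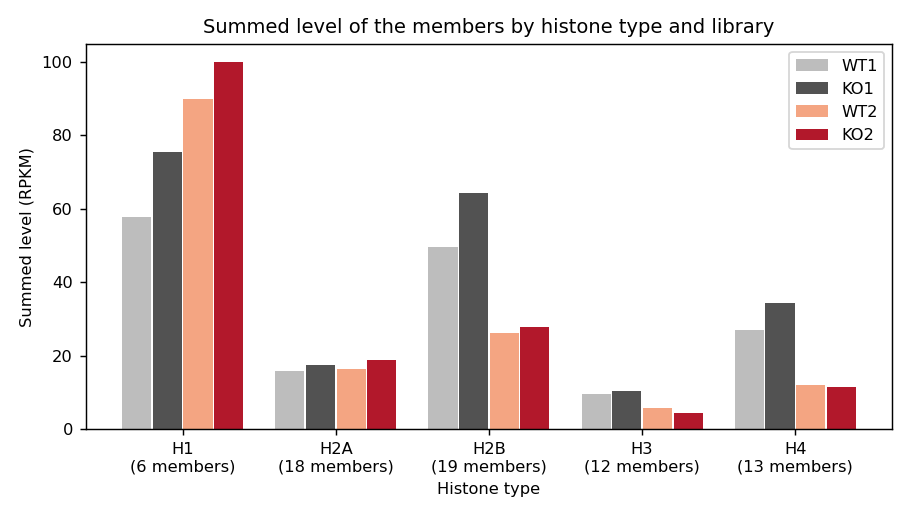
Summed RPKM of the members of each histone type, with 1 bar per library. The H1 bars are higher in WT2 and KO2 than in WT1 and KO1, those of H2B, H3 and H4 are lower, and the H2A bars lie between 16 and 18.8 RPKM.

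By cluster, Hist1 gave 87.9% to 92.7% of the summed level, with 145 RPKM in WT1, 187 in KO1, 133 in WT2 and 143 in KO2. Hist2 summed to 3.07 to 3.86 RPKM and Hist3 to 10.7 to 16.4 RPKM. In Hist3 nearly all of it was Hist3h2a, and the other 2 genes summed to 0.273 RPKM in WT1, 0.0439 in KO1, 0.859 in WT2 and 0.348 in KO2. Without Hist3h2a the pooled log2 ratio of KO to WT in Hist3 was -1.53, against 0.06 with it. That ratio rests on few reads. Hist3h2ba had 13 in WT1, 2 in KO1, 94 in WT2 and 28 in KO2, and Hist3h2bb-ps had 7, 1, 0 and 1. Within Hist1 the genes lie in 2 stretches separated by 1487 kb. The first (21807632 to 22135479) holds 23 members, of which 16 were listed in all libraries. Their median mean level was 0.138 RPKM, and only Hist1h4i had a mean of 1 RPKM or more. The second (23622913 to 24026720) holds 31 members, of which 29 were listed, with a median of 0.469 RPKM and 11 means of 1 RPKM or more. Hist1h1c, Hist1h2bc, Hist1h4h and Hist1h2ba all lie in the second stretch, apart from each other and with low genes between them.

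**Figure D3:**
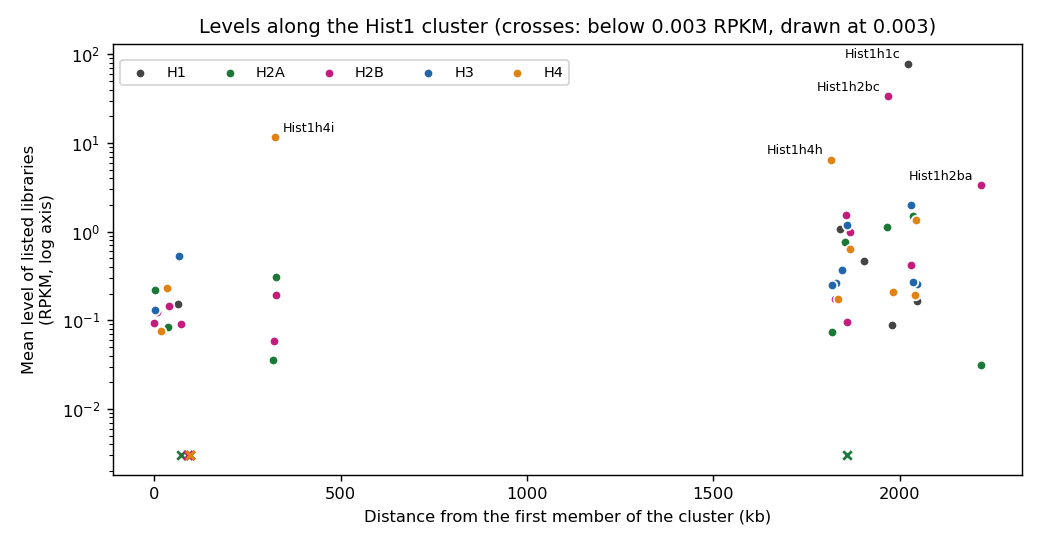
Mean RPKM of the libraries that list a member (log axis) against its distance in kb from the first member of the Hist1 cluster, coloured by histone type, with crosses for members below 0.003 RPKM. The high members lie mostly in the second stretch, with Hist1h4i at 11.6 RPKM in the first.

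Members placed more than once in the annotation were at or near 0. In replicate 2, 12 members were not listed, and 9 members had no value above 0 in any library. Of the 12, 8 are placed at 2 places in the genome by the rows: Hist1h2ao, Hist1h2ap, Hist1h2bq, Hist1h2br, Hist1h4n, Hist2h2aa1, Hist2h2aa2 and Hist2h3c1. Among these 8 the highest value was 0.00178 RPKM and 6 were at 0 in both libraries that list them. The other 4 were Hist1h2aa, Hist1h2ad, Hist1h2an and Hist1h4m, of which Hist1h2aa alone had reads, 3 in KO1 and 0 in WT1. How reads with several matching places were handled is not given in the sources used here, so a value of 0 for these members was not read as silence.

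Longer deposited transcripts had the higher median level among the 56 members listed in all libraries. The 39 members that span under 600 bases from start to end had a median mean level of 0.193 RPKM, and 7 had a mean of 1 RPKM or more. The 6 members of 600 bases or more but under 1000 had a median of 0.254 RPKM. The 11 members of 1000 bases or more had a median of 1.08 RPKM, and 6 had a mean of 1 RPKM or more, among them Hist1h1c, Hist1h2bc and Hist3h2a. RPKM is already divided by transcript length. Span includes introns, and mRNAs ending at the stem-loop are usually short and without introns. Whether the reads lay in that added part cannot be read from a value per transcript. Hist1h4i and Hist1h4h, with spans under 600 bases, were among the exceptions to this order. So were Hist2h2be, with 2618 bases and 0.38 RPKM, and Hist1h2bp, with 1726 bases and 0.0902 RPKM. These last were picked out after their values were seen.

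**Figure D4:**
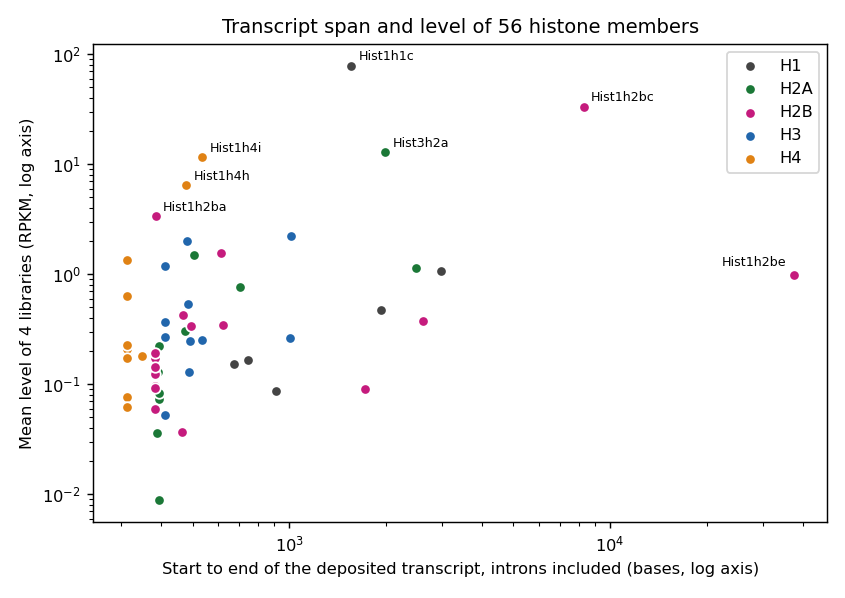
Mean RPKM over the 4 libraries against the span of the deposited transcript in bases, introns included, for the 56 members listed in every library (both axes log), coloured by histone type. Of the points above 10 RPKM, Hist1h1c, Hist1h2bc and Hist3h2a span 1000 bases or more and Hist1h4i spans under 600.

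More members were called by replicate number than by genotype, and the same held for all genes. Of all genes 47.8% were called by number in either direction, and 0.673% by genotype in the same fit. In limma, with terms for genotype and for number, 14 of the 19 tested members were lower in replicate 2 (11.9% of all genes were), and 1, Hist1h1c, was higher (35.8% of all genes were). Hist1h4h differed by -1.67 on the log2 scale, replicate 2 minus replicate 1 (limma adjusted p 4.48e-05), and Hist1h4i by -1.31 (0.000168). Hist1h1d, Hist1h2ae, Hist1h4d and Hist3h2a were not called. The median of all tested genes was 0.25 higher in replicate 2. After median-ratio scaling, an alternative added after seeing the data, 15 members were lower and 0 higher. The call of Hist1h1c ended there (log2 difference 0.26, adjusted p 0.205, against 0.55 and 0.0178). Over all genes that scaling gave 2374 lower and 2554 higher in place of 1331 and 3992. Of the 14 lower members 5, Hist1h2ac, Hist1h2bb, Hist1h2be, Hist1h3i and Hist1h4a, reached 0.5 RPKM in replicate 1 alone. They passed the filter only through the group where they were high, so the counts are a description and these 5 calls support nothing. Without a filter, both replicate 2 libraries were below both replicate 1 libraries for 23 of the 56 listed members (41.1%, against 17.8% of the 16266 genes listed in every library) and above them for 15 (26.8%, against 50.6%). The number is also the way the files differ in rows, so culture, library and processing cannot be told apart.

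The comparison of KO with WT asks whether histone transcripts with a tail differ when Lsh is missing. No member was called. In limma with genotype as the only term, 0 of 19 tested members and 0 of 11147 genes (0%) passed an adjusted p of 0.05. Of the members, 0 had an unadjusted p below 0.05, as did 41 of all genes. With the number as a second term, 0 of 19 members passed, against 75 genes or 0.673% of all (0.377% raised, 0.296% lowered), and again 0 members had an unadjusted p below 0.05, against 1014 genes. The lowest adjusted p of a member in that fit was 0.556, for Hist1h2bb. The standard errors of the members ran from 0.30 to 0.96 without the number and from 0.15 to 0.38 with it.

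The direction of the difference was then compared between the numbers. KO was above WT for 15 of the 19 tested members in replicate 1 (38.4% of all genes were) and for 6 in replicate 2 (52.7% of all genes). Of these 19, 5 reached 0.5 RPKM in replicate 1 alone. The members' median difference on the log2(RPKM + 0.5) scale was 0.31 in replicate 1 and -0.19 in replicate 2, against -0.07 and 0.02 for all genes tested. Higher in KO within both numbers were 5 members (22.5% of all genes): Hist1h1c, Hist1h1d, Hist1h2ac, Hist1h2bc and Hist1h3i. Lower within both were 3 members (31.4% of all genes): Hist1h2bb, Hist1h3c and Hist1h4a. A further 10 were higher in replicate 1 and lower in replicate 2, and Hist3h2a was the reverse. Of all genes 38.4% were higher in replicate 1 but 22.5% within both, so the rest of that share was not higher in replicate 2. For the reverse, 52.7% were higher in replicate 2, with the same 22.5% within both. Without the filter KO was above WT for 33 of the 56 listed members in replicate 1 (58.9%, against 40.3% of the 16266 genes listed in every library). In replicate 2 it was 20 (35.7%, against 51%). Higher within both were 12 (21.4%, against 23%) and lower within both 14 (25%, against 29%), near the shares of all genes. The groups by genotype overlapped for every tested member: 0 had both KO libraries above both WT libraries (6.1% of all genes) and 0 had both below (7.32%).

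**Figure D5:**
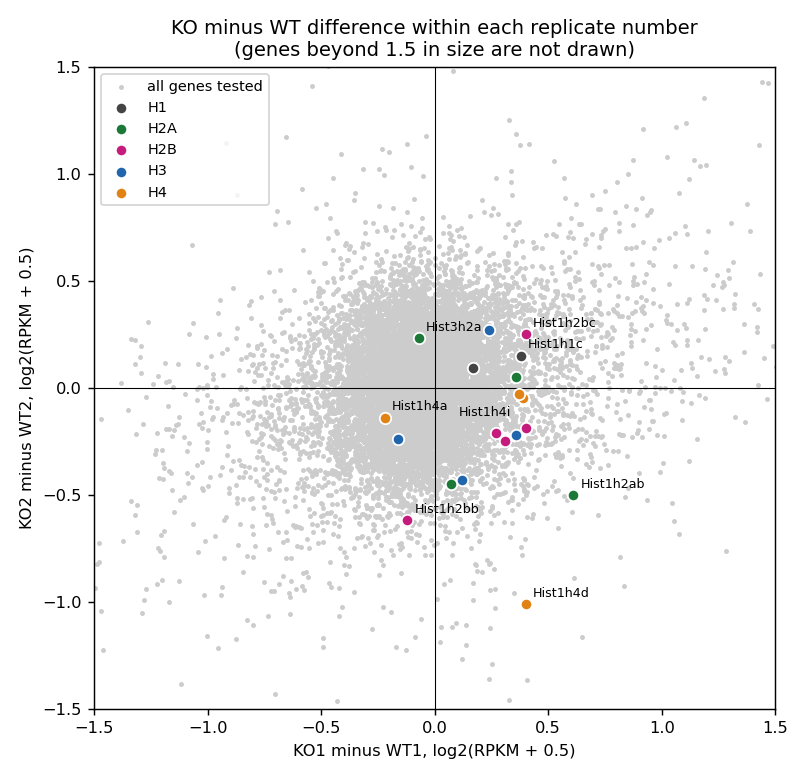
KO minus WT difference on the log2(RPKM + 0.5) scale in replicate 1 (horizontal) and replicate 2 (vertical), with all tested genes in grey and the 19 tested histone members coloured by type. Of the members 15 lie right of 0 and 6 above 0, and 10 lie right of 0 and below 0.

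For Hist1h1c, the member with the most reads, KO was above WT by more than counting error in both numbers. The ratio of KO to WT for Hist1h1c was 1.3 in replicate 1 (95% exact binomial interval 1.27 to 1.34, from 11501 and 13887 reads) and 1.11 in replicate 2 (1.09 to 1.13, from 24385 and 20902 reads). Its pooled log2 change was 0.27 (SE 0.34, limma adjusted p 1.00), higher in KO within 2 of 2 numbers. Such intervals compare single libraries, cover counting error only and say nothing of the spread between cultures. For Hist1h4i the ratio was 1.31 (1.2 to 1.42) in replicate 1 and 0.977 (0.864 to 1.1) in replicate 2. For Hist3h2a it was 0.949 (0.9 to 1) and 1.18 (1.14 to 1.23). Hist1h2ab lay on opposite sides, with 1.66 (1.33 to 2.08) and 0.432 (0.229 to 0.775). Its pooled log2 change was 0.05, and -0.12 with a pseudocount of 0.1. Hist1h2bc, which is spliced in its row and has no whole read count, had ratios of 1.32 and 1.19 (pooled log2 change 0.32, SE 0.57, limma adjusted p 1.00).

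Over the 46 members with whole read counts and a ratio in both numbers, the intervals lay above 1 in both numbers for 2, Hist1h1c and Hist1h2ai, and below 1 in both for 2, Hist1h2bn and Hist3h2ba. Above in replicate 1 and below in replicate 2 were Hist1h2ab and Hist2h3c2-ps, and 16 members had no interval past 1. The share of all genes with such intervals was not counted, so these counts are a description only. Hist1h2bn, an H2B gene, had 13 reads in WT1 and 2 in KO1, and 15 in WT2 and 3 in KO2. Hist3h2ba, an H2B gene of the Hist3 cluster, had 13 and 2 reads, and then 94 and 28. Hist1h2ai, an H2A gene, had 1 and 11 reads, and then 13 and 24. Hist1h2bn, Hist3h2ba and Hist1h2ai were below the filter and were picked out after their values were seen, and no test adjusts their intervals for the number of members. Hist1h2ai and Hist1h4c had both KO libraries above both WT libraries among the 56 listed members, and Hist1h1a, Hist1h2bl, Hist1h2bm, Hist1h2bn and Hist2h3b had both below. With 2 libraries per genotype such a separation was seen for 7.8% and 8.02% of the 16266 genes listed in every library, against 3.57% and 8.93% of the listed members.

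Levels within a divergent pair could lie far apart. Hist1h2ae and Hist1h2bg, whose shared stretch is printed above, were at 0.752 and 1.72 RPKM in WT1, 0.812 and 2.43 in KO1, 0.949 and 1.13 in WT2 and 0.563 and 0.932 in KO2. Hist1h2bg was the higher of the pair in every library. Hist1h2aa and Hist1h2ba, with 280 bases between their starts, are the testis H2A and H2B genes. Hist1h2aa had 0 reads in WT1 and 3 in KO1, where Hist1h2ba had 220 and 258. Hist1h2ai and Hist1h2bl, with 228 bases between their starts, went opposite ways: Hist1h2ai was at 0.0193 RPKM in WT1, 0.229 in KO1, 0.187 in WT2 and 0.449 in KO2, and Hist1h2bl at 0.159, 0.0429, 0.149 and 0.0193. Those of Hist1h2bl rest on 8, 2, 10 and 1 reads. The last pair was picked out after its values were seen.

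Of 15 histone genes outside the clusters, most of whose mRNAs carry a tail and are made in all phases of the cell cycle, 11 passed the filter. The other 4 (H1foo, H1fnt, H2afb1 and Hils1) were at or near 0. H3f3b, which encodes the replacement histone of the H3 type, was at 104 RPKM in WT1, 104 in KO1, 193 in WT2 and 216 in KO2, against a sum of 4.35 to 10.5 for all 12 clustered H3 genes. H1f0, a linker histone of resting cells, was at 18.6, 16.8, 120 and 126 RPKM in the same order. It lay below Hist1h1c in replicate 1 and above it in replicate 2. H2afx, the H2A variant marked at DNA breaks, was at 45.6, 34.7, 85.7 and 49.2 RPKM. Of the 11 tested genes of this list, 7 were lower in KO within both numbers (31.4% of all genes) and 1 was higher (22.5%). The median difference was -0.39 in replicate 1 and -0.13 in replicate 2, against -0.07 and 0.02 for all genes tested. In limma 0 were called in either fit.

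Genes that act on histone mRNA and protein, and genes of S phase, were taken from lists drawn up for these members. Of 17 tested genes of histone mRNA processing, 5 were lower in KO within both numbers (31.4% of all genes) and 1 was higher (22.5%), with medians of -0.22 and 0.07. Lsm10, a subunit of the U7 snRNP that cuts histone pre-mRNA, was at 13.6 RPKM in WT1, 10.3 in KO1, 25.4 in WT2 and 22.7 in KO2. Upf1, needed for the decay of histone mRNA, was at 10.8, 8.6, 8.62 and 7.38 RPKM, and Ncbp2, of the cap-binding complex, at 26.9, 25.2, 20.8 and 21.8. Of 19 tested genes of histone chaperones and their partner acetylase, 10 were lower within both numbers and 0 higher. Nap1l1, an H2A and H2B chaperone, was at 47, 39.9, 33.1 and 39.3 RPKM. Of 31 tested S phase genes, 27 were lower in KO within both numbers and 0 higher, with medians of -0.60 and -0.22. Pcna, the clamp of the replication fork, was at 11.9 RPKM in WT1, 8.91 in KO1, 21.8 in WT2 and 16.5 in KO2. Rrm2, a subunit of ribonucleotide reductase, was at 24.3, 11.1, 19.4 and 15.7. In limma 0 genes of these 3 lists were called in either fit. The histone members did not share that direction in replicate 1, where 15 of 19 were higher in KO and 1 of 31 S phase genes was. In replicate 2 the counts were 6 of 19 and 3 of 31. Of the 56 histone members listed in all libraries, without the filter, 33 (58.9%) were higher in KO in replicate 1 and 20 (35.7%) in replicate 2. The difference between the lists was not tested.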

How the data were processed

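RNA was measured in 4 libraries of 22 samples, grouped by genotype from the sample titles. Per the submitters' processing notes the build was mm9 and the program Partek, and the readme deposited by the authors names Cufflinks. The deposited values are RPKM per RefSeq transcript on chromosomes 1 to 19, and the aligner is not given in the sources used here. Rows were summed per symbol. The 11147 of 16266 genes listed in all libraries that reached 0.5 RPKM in 2 libraries were fitted with limma 3.58.1 (R 4.3.3; trend, robust) on log2(RPKM + 0.5), two-sided, with Benjamini-Hochberg adjustment. This scale understates the change of low genes. The design had genotype alone, and an alternative added the replicate number. The script was tested on simulated data. RPKM times length times mapped reads gave whole reads (within 0.02) for 52 of the 56 members listed in all libraries, and 95% exact binomial (Clopper-Pearson) intervals came from these with SciPy 1.17.1. Named members were the 12 highest, the 5 that changed most in each direction with the same sign in both numbers, any called, and the highest of each type and cluster, and any other is said to be picked afterwards or is part of a complete list. The members and lists were chosen with earlier results of these data known. The chromatin samples were not analysed here.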

Additional observations from a re-analysis of the deposited data

How the results depend on the processing

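The members' count of 0 calls was the same under all 17 alternatives to the fit with genotype alone, which changed the pseudocount, filter, scaling, choice of row, replicate block or libraries (0 to 0 with 1 library left out). Over all genes 0 were called without the block (0 to 0 with 1 library left out). With the replicate block 75 were called, with the block and a pseudocount of 0.1 or 1 it was 40 and 59, with median-ratio scaling 102, with quantile normalization 179, with the highest row per gene 3, and without the low-value filter 0 of 16266. The deviations of replicate 1 from the genotype mean had an r of 0.875 between WT and KO across 11147 genes, but no label ties a number to a shared litter or day. Of 208 values of the 16 named tested members under the alternatives other than a left-out library, 206 kept direction and side of the threshold. Those of Hist1h2ab reversed to -0.12 with a pseudocount of 0.1, with and without the block.

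With 1 library left out, the difference between the numbers enters the change, and 30 of 64 values reversed. The log2 change ran from -0.07 to 0.60 for Hist1h1c, -0.09 to 0.35 for Hist1h1d, -1.13 to 1.24 for Hist1h2ab, -0.59 to 1.01 for Hist1h2ac, -0.72 to 0.78 for Hist1h2ba, -0.91 to 0.17 for Hist1h2bb, -0.26 to 0.91 for Hist1h2bc and -0.41 to 0.62 for Hist1h2bg. It ran from -0.82 to 0.42 for Hist1h3c, -0.80 to 0.49 for Hist1h3d, -0.23 to 0.74 for Hist1h3i, -0.98 to 0.62 for Hist1h4a, -0.77 to 1.12 for Hist1h4h, -0.59 to 0.93 for Hist1h4i, -0.39 to 0.52 for Hist2h3c2-ps and -0.20 to 0.37 for Hist3h2a. The log2 ratio of the summed level, 0.23, ran from 0.07 to 0.38. In the added comparison of numbers, median-ratio scaling called 0 members higher in replicate 2 in place of 1. With under 10 reads, as 27 members had in WT1 and in KO1, a difference of a few reads sets the ratio.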
